A study of Mus musculus with 7 samples.

Results

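The RNA of the NF-kappaB subunits and their inhibitors was followed in mouse ovarian granulosa cells, which nurse the oocyte within the follicle and make oestradiol. The 10 genes were picked by symbol from a deposited table of 50095 genes, and all 10 were found once: the subunits Nfkb1, Nfkb2, Rela, Relb and Rel, and the ankyrin-repeat proteins Nfkbia, Nfkbib, Nfkbie, Nfkbiz and Bcl3, called the inhibitors here as a family name. The cells came from superovulated female mice 3 weeks of age. Follicle growth was driven with 5 IU of PMSG, a horse gonadotropin, and ovulation was set off 48 h afterwards with hCG, also at 5 IU. The 3 KO-labelled libraries carried Ezh2flox/flox; Cyp19-Cre and the 4 WT-labelled libraries Ezh2flox/+; Cyp19-Cre. Ezh2 is the enzyme that methylates histone H3 within a Polycomb complex, and Cyp19-Cre drives Cre from the promoter of aromatase. Both groups therefore carried the same Cre and the same hormone treatment, and the WT libraries carried 1 floxed allele. The labels give neither the time from hCG to collection nor the animals behind each library, so p-values measure only the spread between these libraries.

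NF-kappaB is a family of dimeric transcription factors. In resting cells the dimers are held in the cytoplasm by IkappaB proteins, whose ankyrin repeats cover the nuclear import signal of the dimer. Tumour necrosis factor, interleukin-1 and Toll-like receptor ligands activate a kinase complex that marks IkappaB for destruction, and the freed dimers enter the nucleus and switch on genes that include their own inhibitors. Ovulation shares many mediators with inflammation, among them prostaglandins, cytokines and chemokines. Protein levels, processing and nuclear entry, through which the pathway is mostly regulated, are not read by RNA sequencing.

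The levels are given as FPKM, a unit per transcript length and per depth, so that different genes can be set side by side. No header names the unit, which was inferred from the values. The FPKM summed over all genes was 400522 to 450102 in KO-labelled libraries, with KO1 the highest, and 372085 to 390185 in WT libraries. Depth in reads is not given in the table. Ezh2 itself stood at 20.03, 17.8 and 26.1 FPKM in KO1 to KO3, against 20.5, 23.4, 25.2 and 25.3 FPKM in WT1 to WT4, so its whole-gene level did not separate the groups and every direction below follows the labels. The granulosa markers Inha, Fshr, Foxl2 and 7 others were all present, with a summed level of 2650 to 3717 FPKM in KO-labelled and 3979 to 5550 FPKM in WT libraries. Most of this sum was Inha, which averaged 2389 FPKM in KO-labelled and 3222 FPKM in WT libraries. Marker sums of several other cell types were higher in the KO-labelled libraries. The 13 macrophage markers summed to 71.5 to 153 FPKM in KO-labelled and 26.4 to 47.4 FPKM in WT libraries, and the 11 endothelial markers to 45.2 to 65.0 FPKM in KO-labelled and 11.4 to 24.8 FPKM in WT libraries. These are bulk samples, in which fewer cells of a type and less RNA per cell cannot be told apart. WT4 bore the treatment label of the KO group but the title and genotype of WT, and it was kept as WT.

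Several members carry matches to the kappaB consensus, the DNA element that NF-kappaB dimers bind, near their own start sites. RefSeq promoter windows (build GRCm38.p6, 250 bases before to 50 after a transcription start) were found for 7 of the 10 genes, in 9 windows. They covered Bcl3, Nfkb2, Nfkbia, Nfkbib, Nfkbie, Rel and Rela. The kappaB consensus, a degenerate motif of 10 bases searched on both strands, was present in 7 of the 9 windows and in 5 of the 7 genes, against 4.51% of all 32851 promoter windows. Of these windows 3 belong to Nfkb2, and 2 of the 3 overlap and hold the same match, so the windows are not independent. Nfkbib and Rela had no match in these windows. The sequences below, 120 bases before to 30 after the start, are shown because Bcl3 was the only member called changed and the others are the members with a match. Capitals mark the matches.
Bcl3, chr7:19822726-19822875, minus strand: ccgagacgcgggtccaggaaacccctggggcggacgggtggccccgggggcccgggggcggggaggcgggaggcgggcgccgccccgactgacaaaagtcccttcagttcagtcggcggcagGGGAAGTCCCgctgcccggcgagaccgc
Nfkb2, chr19:46304617-46304766, plus strand: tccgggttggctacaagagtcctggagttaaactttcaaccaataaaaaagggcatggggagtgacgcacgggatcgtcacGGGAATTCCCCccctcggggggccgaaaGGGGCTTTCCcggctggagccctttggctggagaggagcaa
Nfkbia, chr12:55492618-55492767, minus strand: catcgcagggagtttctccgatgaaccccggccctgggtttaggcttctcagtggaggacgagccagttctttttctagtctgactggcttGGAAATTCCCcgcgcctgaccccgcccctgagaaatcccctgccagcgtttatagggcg
Nfkbie, chr17:45555580-45555729, plus strand: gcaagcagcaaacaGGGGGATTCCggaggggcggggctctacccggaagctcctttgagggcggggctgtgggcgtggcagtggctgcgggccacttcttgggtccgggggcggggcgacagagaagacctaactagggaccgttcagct
Rel, chr11:23770940-23771089, minus strand: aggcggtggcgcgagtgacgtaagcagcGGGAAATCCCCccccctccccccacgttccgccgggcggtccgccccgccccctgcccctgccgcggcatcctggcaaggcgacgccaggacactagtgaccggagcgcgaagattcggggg
The Bcl3 match, GGGAAGTCCC, lies just inside the transcribed part, at bases 3 to 12 after the start. The Nfkbia match, GGAAATTCCC, lies 29 to 20 bases before its start, and Nfkb2 carries GGGAATTCCC and GGGGCTTTCC within 39 bases of its start, the first overlapping a further match by all but 1 base. A match describes the letters of the window and says nothing of binding in these cells. Among the tested genes with a match, the differences given below ran from -0.12 for Rel to 0.94 for Bcl3.

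Across the family the largest levels belonged to 1 inhibitor and 1 subunit. Nfkbia, which encodes IkappaB alpha, averaged 25.7 ± 5.56 FPKM in KO-labelled and 21.5 ± 3.47 FPKM in WT libraries, and Rela, which encodes the transactivating subunit p65, averaged 23.2 ± 0.807 FPKM in KO-labelled and 20.9 ± 1.87 FPKM in WT libraries (SD, n = 3 KO-labelled and n = 4 WT, as throughout). Their ranges overlapped in both groups, so the order of these 2 genes was not settled. Rela stood above the next gene, Nfkb2, in every library of both groups. Nfkb2, Nfkbiz, Nfkb1 and Nfkbib formed a middle group of neighbours whose ranges overlapped. Relb, Rel and Bcl3 were lower, and Nfkbie, which encodes IkappaB epsilon, was the lowest member in every library. The steps that did not overlap in either group were those between Rela and Nfkb2, between the middle group and the low group, and between Nfkbie and the gene above it. In the KO-labelled libraries the ranges of Bcl3, Relb and Rel overlapped, while in WT libraries Bcl3 lay below the whole range of Relb.

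The share of each subunit in the family's RNA overlapped between the 2 groups. Rela made up 43.4%, 40.2% and 40.6% of the summed FPKM of the 5 subunits in KO1 to KO3, against 46.7%, 40.6%, 40.0% and 39.0% in WT1 to WT4. Nfkb2 made up 23.8 ± 3.12% in KO-labelled and 25.3 ± 2.23% in WT libraries, and Nfkb1 20.5 ± 2.15% in KO-labelled and 18.4 ± 1.87% in WT libraries. Relb and Rel each stayed under 10% of the sum in every library. The sum of the 5 subunits was 55.6, 56.2 and 56.3 FPKM in KO1 to KO3, against 50.4, 48.3, 48.7 and 54.1 FPKM in WT1 to WT4. Among the inhibitors, Nfkbia made up 46.2 ± 3.09% in KO-labelled and 47.9 ± 1.65% in WT libraries. The share of Bcl3 was 9.73%, 4.40% and 7.96% in KO1 to KO3, against 3.22%, 3.77%, 4.45% and 2.69% in WT1 to WT4, with KO2 just below WT3.

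**Figure D1:**
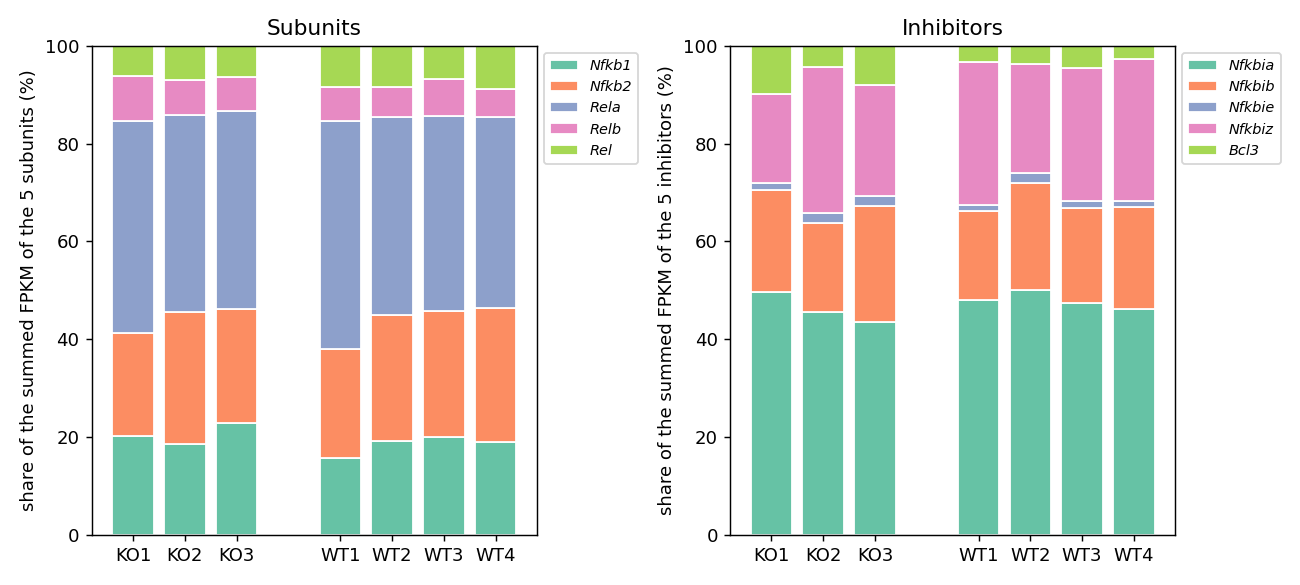
Share of each gene in the summed FPKM of the 5 subunits (left) and the 5 inhibitors (right), in percent, 1 stacked bar per library, KO-labelled libraries left of WT. Rela held 39.0% to 46.7% of the subunit sum in all 7 libraries, and Bcl3 reached 9.73% of the inhibitor sum in KO1.

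Most members differed little between the groups, and 1 of the 9 that could be tested was called. KO-labelled minus WT was fitted with limma on log2(FPKM + 1) over the 13850 genes that averaged 1 FPKM or more, and calls were made at a Benjamini-Hochberg adjusted p under 0.05. Bcl3 rose, 8 members were not called, 0 fell, and Nfkbie lay under the minimum. Over all genes tested 24.6% were called, 7.91% higher and 16.7% lower, so 1 rise among 9 is near the general rate. The split of 1095 rises and 2315 falls depended on scaling. It was 1597 and 1475 with median-of-ratios scaling (11.5% higher), 847 and 3946 with an equal sum of FPKM (6.12% higher), and 1605 and 1360 once the trend on transcript length was removed (12.1% higher). At an unadjusted p under 0.05, 4 members were higher in KO-labelled libraries (Bcl3, Nfkb1, Relb and Nfkbib) and 0 lower, against 13.6% of all genes tested higher and 26.4% lower. The difference was positive for 8 of the 9 members and for 40.7% of all genes tested. The median log2 difference was 0.24 over the 9 members and -0.08 over all genes tested. With the libraries scaled to an equal sum of FPKM the member median was 0.09 and that of all genes -0.21. With median-of-ratios scaling they were 0.34 and 0.0071.

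**Figure D2:**
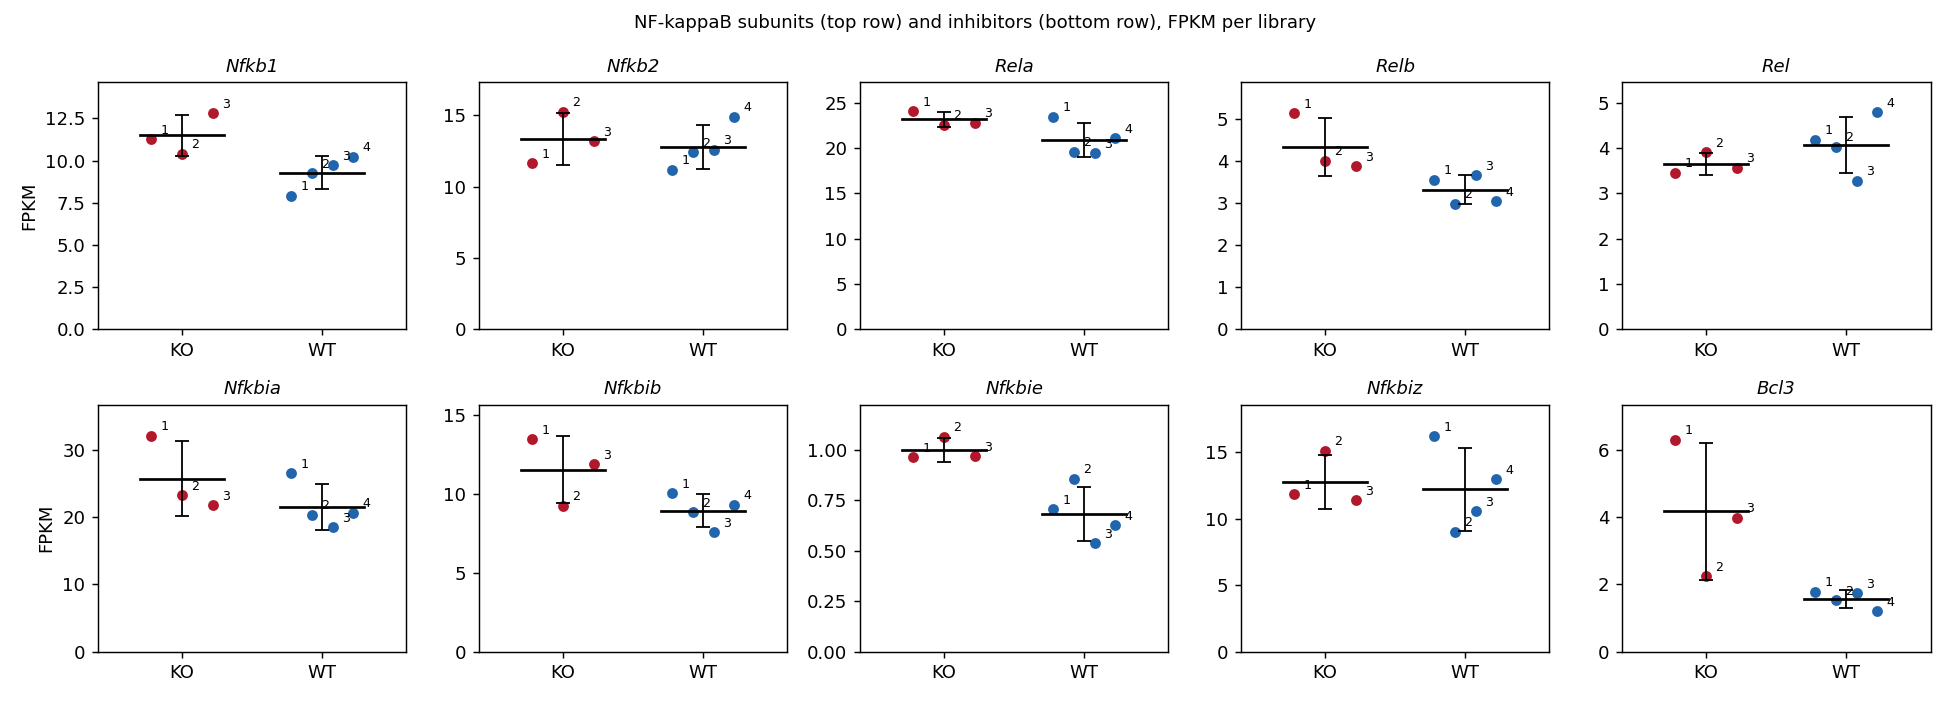
FPKM of each member per library (points, numbered by replicate), KO-labelled libraries left of WT, with the mean (horizontal line) and SD (bar), each axis starting at 0. The KO-labelled points lie wholly above the WT points for Nfkb1, Relb, Nfkbie and Bcl3, and the groups overlap for the other 6 members.

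Bcl3, an atypical IkappaB protein that works in the nucleus as a co-regulator bound to NF-kappaB homodimers, was the member that changed. It lies on chromosome 7 (ENSMUSG00000053175, GRCm38, 19808462 to 19822770, minus strand). It stood at 6.29, 2.24 and 3.98 FPKM in KO1 to KO3, against 1.78, 1.53, 1.73 and 1.20 FPKM in WT1 to WT4. Every KO-labelled library lay above every WT library, KO2 by the least and KO1 by the most. The means of 4.17 ± 2.03 FPKM in KO-labelled and 1.56 ± 0.262 FPKM in WT libraries stood in a ratio of 2.67, and the log2 difference came to 0.94, with an SE of 0.24 and a 95% interval of 0.39 to 1.49 (limma adjusted p = 0.0244). The call was lost without WT2 (limma adjusted p = 0.0516), WT3 (0.0543), WT4 (0.0517), KO1 (0.0762) or KO3 (0.0664) and with no filter on low values (0.0867), while the difference lay between 0.66 (without KO1) and 1.26 (pseudocount 0.1) in all 14 alternatives in which it was tested. An antisense gene over its exons, Gm16175, reached at most 0.0940 FPKM in KO-labelled and 0.139 FPKM in WT libraries.

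The order of Bcl3 within the KO-labelled libraries, KO1 above KO3 above KO2, was also that of the epithelial, smooth muscle and endothelial marker sums. The endothelial sums of KO1 and KO3 were close, and the macrophage sum was highest in KO3. Epithelial markers (7 keratin, adhesion and mesothelial genes) summed to 117, 56.9 and 92.6 FPKM in KO1 to KO3 and to 27.7 to 34.3 FPKM in WT libraries, and all 7 rose. Smooth muscle and pericyte markers summed to 352, 127 and 204 FPKM in KO1 to KO3 and to 57.4 to 102.6 FPKM in WT libraries, where 4 of 7 tested rose. Most of this sum was Acta2 and Tagln, contractile genes of smooth muscle, at 163 and 158 FPKM in KO1. Of the pericyte markers, Rgs5 averaged 3.58 ± 1.28 FPKM in KO-labelled and 0.818 ± 0.450 FPKM in WT libraries. Rgs5 was called higher (log2 1.32, limma adjusted p = 0.00883), but it was tested only through its level in KO-labelled libraries. Pdgfrb and Cspg4 were part of the list from the start but were named after their values were seen. Pdgfrb averaged 2.21 ± 0.474 FPKM in KO-labelled and 1.83 ± 0.860 FPKM in WT libraries and was not called. Cspg4, too low to be tested, averaged 0.498 ± 0.139 FPKM in KO-labelled and 0.899 ± 0.165 FPKM in WT libraries. Macrophage markers summed to 141, 71.5 and 153 FPKM in KO1 to KO3, with 10 of 11 tested called higher, among them the complement gene C1qa (15.4 ± 5.68 FPKM in KO-labelled and 2.09 ± 0.516 FPKM in WT libraries). Endothelial markers summed to 65.0, 45.2 and 64.3 FPKM in KO1 to KO3, with all 9 tested called higher. Of these rises 3 macrophage, 3 endothelial, 1 smooth muscle and 1 epithelial marker averaged under 1 FPKM in WT libraries and were tested only through their level in KO-labelled libraries. Lymphocyte markers stayed at 3.68 to 5.21 FPKM in KO-labelled and 3.03 to 4.25 FPKM in WT libraries, and 0 of the 2 tested were called (0 also at an unadjusted p under 0.05). Granulosa markers fell in 5 of 10 and rose in 0, and Inha, which made up most of their sum, was not called. Beside these marker counts, 7.91% of all genes tested were called higher and 16.7% lower. No marker of these lists was at 0 in all 7 libraries, and their part in the Bcl3 result was not tested.

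**Figure D3:**
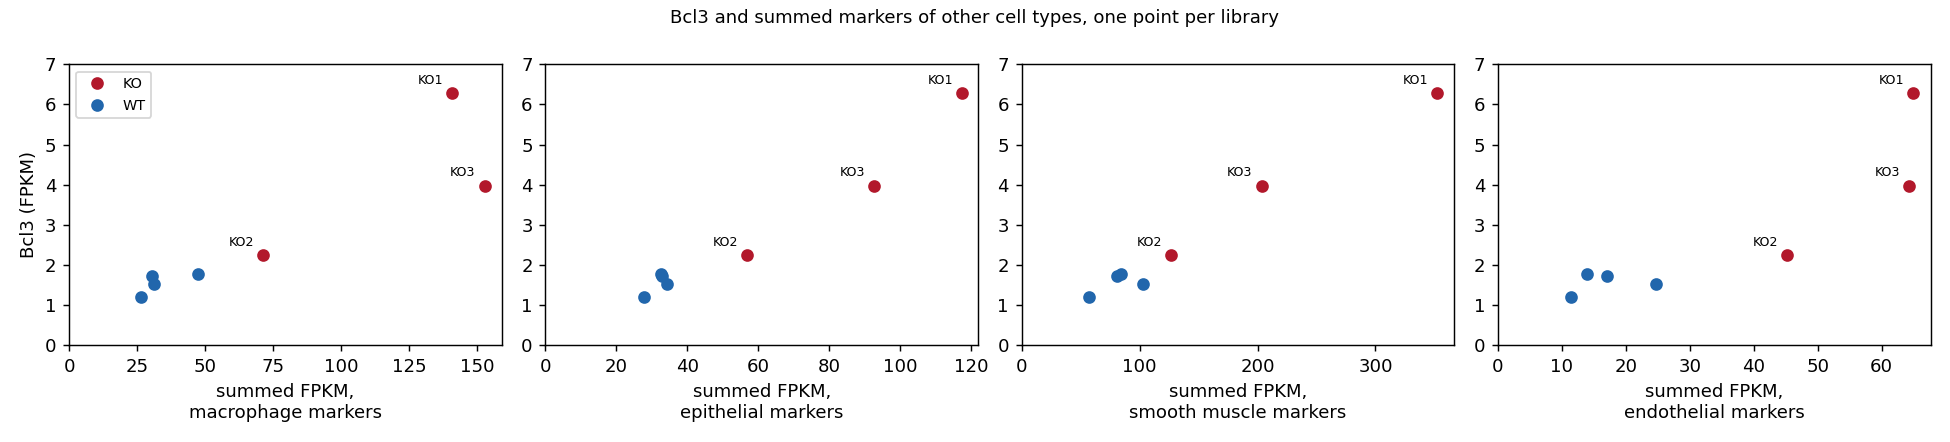
Bcl3 in FPKM (vertical axis) against the summed FPKM of macrophage, epithelial, smooth muscle and endothelial markers (horizontal axes), 1 point per library, KO-labelled in red and WT in blue. The KO-labelled libraries lie above and to the right of the WT libraries in each panel, with KO2 nearest to WT.

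The genes whose pattern over the 7 libraries came closest to Bcl3 were Gstm1, Cap2 and Ifitm1. Likeness was the mean absolute difference between 2 genes of log2(FPKM + 1) centred on its mean over the 7 libraries, over 11791 genes, and it came to 0.07, 0.07 and 0.09. Gstm1, a glutathione transferase with close paralogs among which reads may be split, stood at 138, 63.1 and 110 FPKM in KO1 to KO3 and at 43.9 to 54.0 FPKM in WT libraries. Cap2, an actin-binding protein, stood at 3.56, 1.20 and 2.66 FPKM in KO1 to KO3, against 0.703 ± 0.0981 FPKM in WT libraries. Ifitm1, an interferon-induced membrane protein, stood at 14.7, 5.05 and 8.49 FPKM in KO1 to KO3, against 3.47 ± 0.440 FPKM in WT libraries. Cap2 was tested only through its level in KO-labelled libraries. As for Bcl3, KO1 was the highest and KO2 the lowest of the KO-labelled libraries in all 3. Since the 3 genes were picked for likeness to Bcl3 over these same libraries, the shared order follows from the choice.

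Bcl3 and Relb are near neighbours on chromosome 7, 179023 bases apart, and the genes between them were looked up after the values of Bcl3 had been seen. Of 13 annotated genes in the interval 11 were in the table and 6 could be tested, of which 4 rose and 0 fell, with a median log2 difference of 0.69 (7.91% of all genes were called higher). Since the interval was picked for Bcl3 and Apoc1 averaged under 1 FPKM in WT libraries, this count is a description. The rises were the apolipoproteins Apoe (207 ± 63.4 FPKM in KO-labelled and 66.0 ± 14.0 FPKM in WT libraries) and Apoc1 (4.98 ± 2.42 FPKM in KO-labelled and 0.657 ± 0.476 FPKM in WT libraries), both also made by macrophages, and the cell adhesion genes Nectin2 (20.3 ± 0.519 FPKM in KO-labelled and 13.3 ± 2.12 FPKM in WT libraries) and Bcam (17.1 ± 2.46 FPKM in KO-labelled and 9.59 ± 2.61 FPKM in WT libraries). Clptm1 and Tomm40 were not called, with log2 differences of -0.11 and -0.07. The cause of the 4 rises was not tested.

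Among the subunits, none of the 5 was called, while all KO-labelled libraries lay above all WT libraries for 2 of them. Over all genes tested, 11.5% lay wholly above in this way. Nfkb1, the precursor of the p50 subunit that binds DNA without an activation domain (chromosome 3, 135584655 to 135691547), stood at 11.3, 10.4 and 12.8 FPKM in KO1 to KO3, against 7.92, 9.24, 9.74 and 10.2 FPKM in WT1 to WT4. The gap between KO2 and WT4 was narrow, and the log2 difference came to 0.28, with an SE of 0.11 and a 95% interval of 0.02 to 0.54 (limma adjusted p = 0.0989). It passed with median-of-ratios scaling (0.0353), upper-quartile scaling (0.0318) and the length correction (0.0193), and the difference was 0.14 with an equal sum of FPKM.

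Relb, the subunit of the non-canonical branch that pairs with the product of Nfkb2 (chromosome 7, 19606217 to 19629438), stood at 5.14, 4.01 and 3.88 FPKM in KO1 to KO3, against 3.56, 2.99, 3.66 and 3.05 FPKM in WT1 to WT4. KO1 was again the highest library, and KO3 lay just above WT3. The log2 difference came to 0.30, with an SE of 0.12 and a 95% interval of 0.02 to 0.58 (limma adjusted p = 0.101), and the length correction brought it past the threshold (0.0421). Nfkb2, the precursor of the p52 subunit (chromosome 19, 46304320 to 46312385), stood at 11.6, 15.3 and 13.2 FPKM in KO1 to KO3, against 11.2, 12.4, 12.6 and 14.9 FPKM in WT1 to WT4. The groups overlapped almost fully, and the difference of 0.06 (95% interval -0.22 to 0.34) was -0.08 with an equal sum of FPKM and -0.03 without KO2. Its exons overlap those of the opposite-strand gene Psd, which averaged 3.14 ± 0.402 FPKM in KO-labelled and 4.97 ± 1.42 FPKM in WT libraries, and whether strand was used in counting is not given in the sources used here.

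Rela (chromosome 19, 5637483 to 5648130) stood at 24.1, 22.6 and 22.8 FPKM in KO1 to KO3, against 23.5, 19.6, 19.5 and 21.1 FPKM in WT1 to WT4. Only WT1 reached into the range of the KO-labelled libraries. The log2 difference of 0.15 had a 95% interval of -0.07 to 0.36 (limma adjusted p = 0.275), and it was 0.00073 with an equal sum of FPKM. Rel, which encodes c-Rel, the subunit best known from lymphocytes (chromosome 11, 23736847 to 23770970), was the member with a negative difference. It stood at 3.46, 3.91 and 3.57 FPKM in KO1 to KO3, against 4.19, 4.03, 3.28 and 4.79 FPKM in WT1 to WT4, and the groups overlapped through WT3. The difference of -0.12 (95% interval -0.40 to 0.16, limma adjusted p = 0.493) turned to 0.12 after the length correction, Rel having the longest transcript of the 10 genes at 7466 bases.

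**Figure D4:**
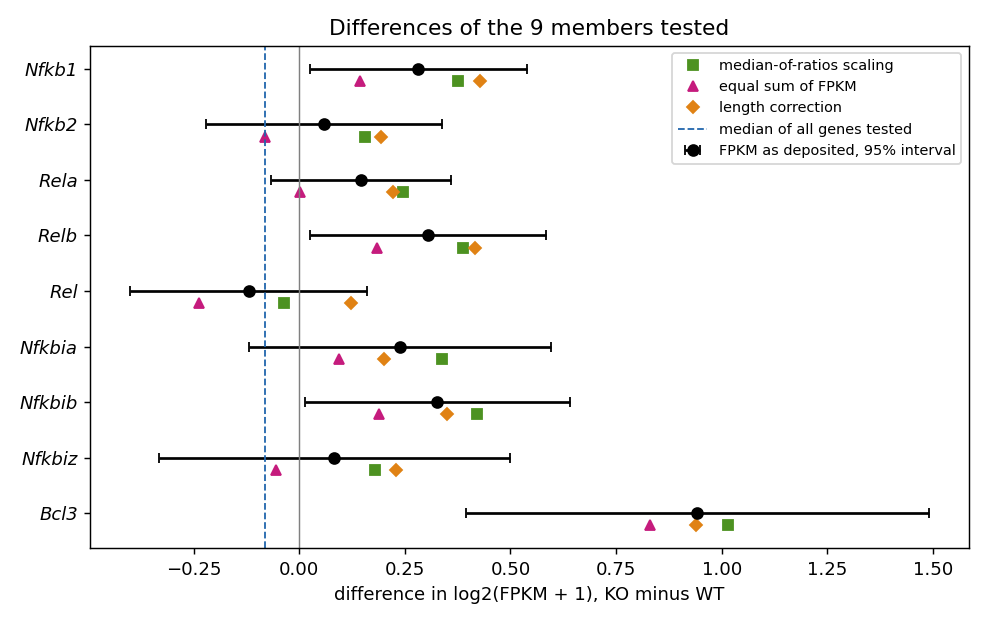
Difference in log2(FPKM + 1), KO minus WT, for the 9 members tested (black points) with 95% intervals from limma, and the same difference under 3 other scalings (coloured symbols), with a dashed line at the median of all genes tested (-0.08). The interval of Bcl3 (0.39 to 1.49) lies apart from 0, those of Nfkb1, Relb and Nfkbib reach to just above 0, and an equal sum of FPKM puts each member's difference lower.

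Of the classical IkappaB inhibitors, which hold dimers in the cytoplasm, none was called. Nfkbia, itself a rapid NF-kappaB target that ends the response (chromosome 12, 55489410 to 55492647), stood at 32.0, 23.3 and 21.7 FPKM in KO1 to KO3, against 26.5, 20.4, 18.5 and 20.7 FPKM in WT1 to WT4. KO1 and WT1 were the high libraries of their groups, and the groups overlapped. The log2 difference of 0.24 had a 95% interval of -0.12 to 0.60 (limma adjusted p = 0.286) and was 0.07 without KO1. Nfkbib, which encodes IkappaB beta (chromosome 7, 28758251 to 28767512), stood at 13.5, 9.27 and 11.9 FPKM in KO1 to KO3, against 10.05, 8.86, 7.57 and 9.32 FPKM in WT1 to WT4. KO2 lay within the WT range, and the difference of 0.33, with an SE of 0.14 and a 95% interval of 0.01 to 0.64 (limma adjusted p = 0.112), passed the threshold without KO2 (0.46, limma adjusted p = 0.0365). Its exons overlap those of Sirt2 on the other strand, a deacetylase gene at 14.5 to 16.4 FPKM in KO-labelled and 13.1 to 14.8 FPKM in WT libraries.

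Nfkbie (chromosome 17, 45555703 to 45563169) averaged 0.817 FPKM over the 7 libraries and so lay under the minimum for the test. It stood at 0.963, 1.06 and 0.968 FPKM in KO1 to KO3, against 0.706, 0.855, 0.536 and 0.626 FPKM in WT1 to WT4. The KO-labelled libraries lay close together and above all WT libraries, as did 12.0% of all genes with a mean between 0.5 and 1 FPKM. On log2(FPKM + 1), an exact two-sided permutation of the library labels (35 arrangements) gave p = 0.0571, where the smallest possible p is 0.0286. With no filter, limma gave a difference of 0.25 (95% interval -0.01 to 0.51, adjusted p = 0.230). Nfkbiz, an atypical nuclear IkappaB that is induced by interleukin-1 and Toll-like receptors and that promotes Il6 and Lcn2 (chromosome 16, 55811375 to 55838899), stood at 11.9, 15.1 and 11.4 FPKM in KO1 to KO3, against 16.2, 9.04, 10.6 and 13.0 FPKM in WT1 to WT4. WT1 was the highest and WT2 the lowest library, and the WT range enclosed that of the KO-labelled libraries. The difference of 0.08 had a 95% interval of -0.33 to 0.50 (limma adjusted p = 0.759) and was -0.06 when libraries were set to an equal FPKM sum, -0.03 without KO2 and -0.04 without WT2.

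In all, the KO-labelled libraries lay wholly above the WT libraries for 4 members, 3 of them tested, and wholly below for 0. Over all genes tested 11.5% lay wholly above and 24.8% wholly below. The number above was 5 with median-of-ratios scaling (18.7% of all genes) and with upper-quartile scaling (18.5%). It was 1, Bcl3, with an equal sum of FPKM (7.34%), in which KO1 is scaled down most.

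Among the other genes of the pathway some rose and some fell, and the shares of all genes tested, 7.91% called higher and 16.7% lower, stand against each count below. Of 20 receptors that feed NF-kappaB, 7 were expressed enough to be tested, 1 rose and 1 fell, with a median log2 difference of -0.18 (0.07 with a minimum of 5 FPKM and 0.05 with no filter). Tnfrsf12a, the receptor of the cytokine TWEAK, rose to 205, 196 and 174 FPKM in KO1 to KO3, against 132, 87.0, 107 and 136 FPKM in WT1 to WT4 (log2 0.75, limma adjusted p = 0.0129). Eda2r, a receptor of the tumour necrosis factor family, fell to 1.49 ± 0.543 FPKM in KO-labelled libraries, against 2.99 ± 0.432 FPKM in WT libraries (log2 -0.70, adjusted p = 0.020). The Eda2r call was lost without KO1 (0.0744) or WT3 (0.0554) and with no filter (0.0664). The Toll-like receptors of the list, which sense microbial products, all averaged under 1 FPKM and were not tested.

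Of 32 kinases, adaptors and ubiquitin ligases, 29 were tested, of which 2 rose and 4 fell, shares near those of all genes (7.91% and 16.7%). The median was -0.14, with -0.29 under an equal sum of FPKM, -0.06 under median-of-ratios scaling and 0.00016 after the length correction. Birc3, an inhibitor-of-apoptosis ubiquitin ligase and NF-kappaB target, rose to 27.0, 24.0 and 30.5 FPKM in KO1 to KO3, against 21.0, 13.6, 17.2 and 16.9 FPKM in WT1 to WT4 (log2 0.64, limma adjusted p = 0.0160). Its groups did not overlap. Its paralog Birc2 fell to 9.10 ± 0.759 FPKM in KO-labelled libraries, against 12.1 ± 1.37 FPKM in WT libraries (log2 -0.37, adjusted p = 0.0383). Ikbkg, the regulatory subunit of the IkappaB kinase complex also called NEMO, fell to 4.42, 3.68 and 4.07 FPKM in KO1 to KO3, against 7.15, 6.67, 6.33 and 5.48 FPKM in WT1 to WT4 (log2 -0.55, adjusted p = 0.0118), with no overlap. Map3k7, the kinase TAK1 above that complex, fell to 10.7 ± 0.940 FPKM in KO-labelled libraries, against 14.8 ± 1.28 FPKM in WT libraries (log2 -0.43, adjusted p = 0.0202). The other rise was the adaptor Bcl10 (log2 0.36, adjusted p = 0.0397), and the other fall the kinase Irak1 (log2 -0.37), the second named after its value was seen. The Birc3 call was lost without KO1 (0.0526) or KO3 (0.0532) and with no filter (0.0527), and that of Map3k7 without KO1 (0.0770), WT2 (0.0507) or WT3 (0.0582). The Bcl10 call was lost without any one library except KO3 (0.0552 to 0.135), with no filter (0.0791) and when libraries were set to an equal FPKM sum (0.133). The Birc2 call was lost without any one library except WT1 (0.0563 to 0.134), with median-of-ratios scaling (0.0863), upper-quartile scaling (0.0885) and no filter (0.0797). After the length correction Ikbkg (0.0971), Map3k7 (0.0613) and Birc2 (0.0939) were not called. Without KO1 the list held 0 rises and 1 fall. Over all genes there were then 497 rises and 796 falls, against 1095 and 2315 with all libraries.

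Of 19 further inhibitors and feedback regulators 16 were tested, of which 4 rose and 1 fell, with a median of -0.04 (0.05 with median-of-ratios scaling and 0.11 after the length correction). The rises numbered 2 with a minimum of 5 FPKM, at which fewer were tested, and 7.91% of all genes were called higher and 16.7% lower. Tnfaip3, the ubiquitin-editing enzyme A20 that ends NF-kappaB signalling and is one of its targets, rose to 4.02, 6.32 and 4.00 FPKM in KO1 to KO3, against 3.26, 2.07, 2.15 and 2.54 FPKM in WT1 to WT4 (log2 0.71, limma adjusted p = 0.0215). KO2 was the high library here, unlike for Bcl3. The Tnfaip3 call was lost without WT2 (0.0510) or WT3 (0.0616) and with no filter (0.0714). Usp18, an interferon-induced protease that removes Isg15, rose to 4.24 ± 2.36 FPKM in KO-labelled libraries, against 0.502 ± 0.280 FPKM in WT libraries (log2 1.71, adjusted p = 0.00755). It was tested only because its level in KO-labelled libraries brought its mean past 1 FPKM. Rnf11, a ubiquitin ligase that works with A20, rose to 13.5 ± 1.59 FPKM in KO-labelled libraries, against 9.39 ± 0.520 FPKM in WT libraries (log2 0.48, adjusted p = 0.0129, and 0.05001, not called, without KO1). Itch, a ubiquitin ligase of the same complex, fell to 8.45 ± 0.354 FPKM in KO-labelled libraries, against 11.3 ± 0.950 FPKM in WT libraries (log2 -0.38, adjusted p = 0.0244). The Itch call was lost without KO1 (0.0827), WT2 (0.0604), WT3 (0.0768) or WT4 (0.0544), with median-of-ratios (0.0533) or upper-quartile scaling (0.0514), and after the length correction (0.1002).

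Of 40 textbook NF-kappaB target genes 29 were tested, of which 10 rose and 2 fell, with a median of 0.34, where 7.91% and 16.7% of all genes did so. Of the 10 rises 3, Il6, Ccl2 and Ccl5, averaged under 1 FPKM in WT libraries and were tested only through their level in KO-labelled libraries, so the count and the median are a description. Ccl5, a chemokine, was named for this after its values were seen. Cxcl10, a chemokine that interferon also induces, rose to 13.8, 4.60 and 8.35 FPKM in KO1 to KO3, against 1.49, 1.33, 0.731 and 0.521 FPKM in WT1 to WT4 (log2 2.22, limma adjusted p = 0.00426). KO1 was the highest and KO2 the lowest of the KO-labelled libraries, as for Bcl3. Il6, an interleukin of the ovulatory cumulus, rose to 7.92, 3.36 and 2.81 FPKM in KO1 to KO3, against 1.14, 0, 0.479 and 0.627 FPKM in WT1 to WT4 (log2 1.81, adjusted p = 0.00842). Ccl2, a chemokine that draws monocytes, rose to 4.79 ± 2.03 FPKM in KO-labelled libraries, against 0.684 ± 0.447 FPKM in WT libraries (log2 1.76, adjusted p = 0.00555). Vcam1, an adhesion molecule, fell to 4.25, 9.32 and 5.56 FPKM in KO1 to KO3, against 11.0, 14.1, 12.0 and 12.0 FPKM in WT1 to WT4 (log2 -0.90, adjusted p = 0.0166). Nos2, the inducible nitric oxide synthase, fell to 13.3 ± 0.593 FPKM in KO-labelled libraries, against 20.3 ± 3.24 FPKM in WT libraries (log2 -0.56, adjusted p = 0.0144). The Vcam1 call was lost without KO1 (0.0545) or KO3 (0.0535) and with no filter (0.0625), and that of Nos2 without KO1 (0.0549). The mean over WT libraries was under 1 FPKM for 14 of the 40 targets. With a minimum mean of 5 FPKM, at which fewer targets were tested, 2 rose and 2 fell, and the median was 0.14. The target median was 0.19 when libraries were set to an equal FPKM sum, 0.44 under median-of-ratios scaling and 0.40 after the length correction. Macrophage markers summed to 71.5 to 153 FPKM in KO-labelled and 26.4 to 47.4 FPKM in WT libraries, and their part in the rises of the targets was not tested.

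**Figure D5:**
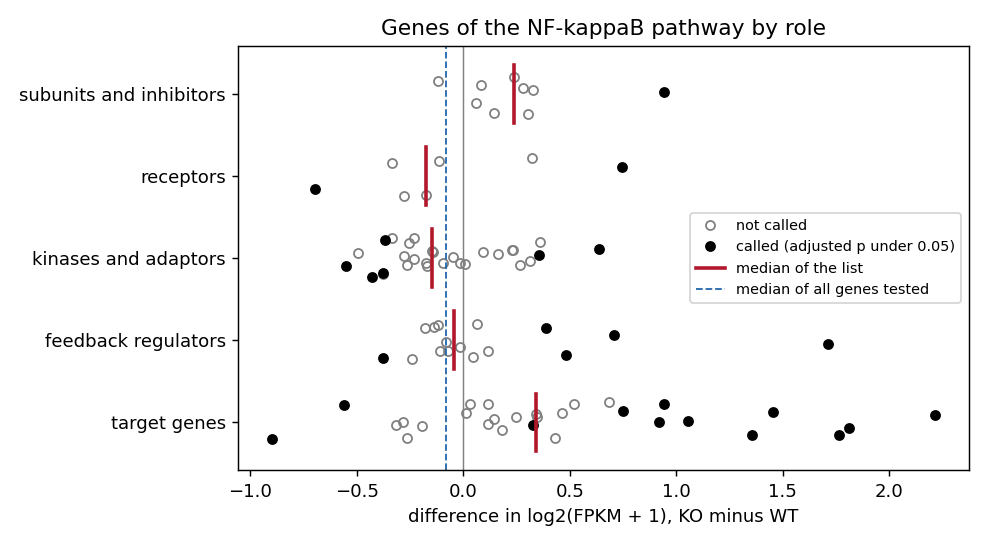
Difference in log2(FPKM + 1), KO minus WT, of each tested gene of the NF-kappaB pathway by role, with called genes filled, the median of each list as a red bar and the median of all genes tested (-0.08) as a dashed line. The 9 subunits and inhibitors lie within -0.12 to 0.33 apart from Bcl3 at 0.94, while the target genes spread from -0.90 to 2.22.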

How the data were processed

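Libraries were prepared from poly(A) RNA (NEBNext kits, fragments near 200 bp) and sequenced from both ends at 150 bp, per the labels' protocols. The deposited table holds 1 value per gene and library. No label or header names its unit, and FPKM, as the authors deposited it, was inferred, since values had decimals and library totals differed. The submitters' processing notes list the build mm10 and the tools HISAT2, HTSeq 0.12.4, edgeR, DESeq2, Trimmomatic and FastQC without roles, so which step made the FPKM values is not stated. Depth per library is not given, and counting error could not be set beside the values.

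The 13850 genes averaging 1 FPKM or more across the 7 libraries were fitted as log2(FPKM + 1) with limma 3.58.1 (R 4.3.3, mean-variance trend), KO minus WT, with Benjamini-Hochberg adjustment. Adjusted p-values of genes and 95% intervals are limma's. Fold changes on this scale understate changes of genes near 1 FPKM. The script was tested on simulated data. Coordinates and transcript lengths came from GENCODE vM21 (GRCm38). List genes were matched by deposited symbol or Ensembl identifier. The length correction subtracts from each library its smooth trend of log2 deviation on transcript length. Alternatives were a pseudocount of 0.1, no filter, a minimum of 5 FPKM, 3 other scalings, the length correction, a replicate block and each library left out. The count of members lying wholly above WT under other scalings was added after the data were seen.

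The 10 members and the other gene lists were chosen with earlier results of these data known. All members were named, and from each other list up to 3 called genes per direction with the largest difference, or the 2 of highest mean where none was called, plus the 3 genes most like a called member. Of the marker lists, counts and sums are given. Of their genes C1qa, Inha, Fshr, Foxl2, Acta2, Tagln, Rgs5, Pdgfrb and Cspg4 are named, some outside the rule. Genes whose exons overlap a member were also named, and any other gene outside the rule is said to have been looked up after values were seen.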

Additional observations from a re-analysis of the deposited data

Results flagged for a closer look

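One value stood apart from its group. Itch in WT1, at 9.88 FPKM, lay below the other WT libraries by 0.852 of the range of the 4 libraries, past Dixon's 95% critical ratio for a group of 4. Of 43 sets of WT values examined, 10 of them members, this was the 1 that did so, and chance gives about 1 in 20. No member had such a value.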

How the results depend on the processing

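Bcl3 kept its direction under all 14 alternatives in which it was tested, and its limma call in 8 of them. The members called higher numbered 3 after the length correction (12.1% of all genes tested) and 2 with median-of-ratios (11.5%) or upper-quartile scaling. They numbered 0 with no filter or with a minimum of 5 FPKM, where Bcl3 was not tested. They numbered 0 to 2 when libraries were left out (0 without WT2, WT3, WT4, KO1 or KO3, 2 without KO2). Members lying wholly above WT numbered 1 with an equal sum of FPKM, an alternative added after the data were seen. Reversed differences were -0.081 (equal sum) and -0.035 (without KO2) for Nfkb2 (-0.035 to 0.146 with libraries left out), 0.12 (length correction) for Rel, and -0.055 (equal sum), -0.034 (without KO2) and -0.039 (without WT2) for Nfkbiz (-0.039 to 0.221 with libraries left out), none of them called. The cause of these shifts was not tested. All genes called higher numbered 685 with a minimum of 5 FPKM, 736 with no filter and 497 to 1316 with libraries left out, the lowest without KO1. Calls over all genes moved with the settings too, and a minimum of 5 FPKM left fewer genes of each list to be tested. Those called lower numbered 3946 with an equal sum, 1360 after the length correction, 1475 with median-of-ratios, 1472 with upper-quartile scaling, 1129 with no filter, and 796 to 2218 with libraries left out. Receptors called higher numbered 2 after the length correction and with median-of-ratios or upper-quartile scaling (1 to 2 with libraries left out), and receptors called lower 2 with an equal sum and 0 with a minimum of 5 FPKM or no filter (0 to 2 with libraries left out). Kinases and adaptors called higher numbered 1 with an equal sum, 6 after the length correction and 0 with no filter (0 to 2 with libraries left out), and those called lower 7 with an equal sum and 1 after the length correction (1 to 5). Feedback regulators called higher numbered 2 with a minimum of 5 FPKM, and those called lower 0 after the length correction and with median-of-ratios or upper-quartile scaling (0 to 1 with libraries left out, 0 without KO1, WT2, WT3 or WT4). Targets called higher numbered 2 with a minimum of 5 FPKM, and those called lower 4 with an equal sum and 1 with no filter (0 to 3 with libraries left out, 0 without KO1).

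No pairing by replicate number stood out, though so few libraries cannot settle it. Same-numbered libraries had deviations that correlated at 0.19, -0.11 and 0.07, and KO2 correlated best with WT4. WT4 has no partner in a block by number, and the Bcl3 difference was 0.87 both with the block and without WT4. With the replicate number as a block, 1 member was called higher and 0 lower, 1 kinase or adaptor was called higher and 2 lower, and 2 feedback regulators were called higher and 0 lower. Among the named genes the block ended the limma calls of Tnfaip3 (adjusted p = 0.0610), Itch (0.0612), Bcl10 (0.0958) and Birc2 (0.0683). Over all genes the block gave 921 higher and 1750 lower.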
